A study of Chlorocebus sabaeus with 12 samples.

Results

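ATF4 and its target genes carry the integrated stress response, and 32 genes of this response and of the supply of amino acids to protein synthesis are described here. They are 7 transcription factors (ATF4, ATF3, ATF5, DDIT3, NUPR1, CEBPB and CEBPG), 5 feedback and effector genes (TRIB3, DDIT4, SESN2, PPP1R15A and STC2), 8 enzymes of amino acid and one-carbon synthesis (ASNS, PHGDH, PSAT1, PSPH, SHMT2, MTHFD2, PCK2 and CTH) and 12 cytosolic tRNA synthetases (AARS, CARS, EPRS, GARS, IARS, LARS, MARS, NARS, SARS, TARS, WARS and YARS). The genes were picked by name from 30982 names on the array, with earlier results of these data known, and each is represented by its brightest probe. All 32 were on the array and all 32 were among the 20357 genes that passed the filter on dim probes.

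The study compared forms of the bile acid receptor FXR (NR1H4) in COS-1 cells, a fibroblast-like line derived from African green monkey kidney. Cells of all 4 groups carried a human FXR mutant, expressed transiently for 24 h before treatment for a further 24 h. In S154D_CDCA and S154D_DMSO the serine was replaced by aspartate, a negatively charged residue used to mimic phosphoserine, and in S154A_CDCA and S154A_DMSO by alanine, which cannot be phosphorylated. The CDCA groups received chenodeoxycholic acid, a bile acid that activates FXR, at a concentration given in the labels as 50 mM, which is far above those usual in cell culture and could not be checked here, and the DMSO groups 0.1% DMSO. Each group had 3 one-colour arrays, with probes designed for the human genome. Wild-type FXR and cells without FXR are not among the 12 arrays, the promoter of the expression construct is not given in the sources used here, and transient transfection leaves a share of cells without the construct. The labels leave unstated whether replicates came from separate cultures, so the errors and p-values below measure the spread between arrays only.

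When amino acids run short or unfolded protein accumulates, kinases phosphorylate the translation factor eIF2, general translation slows and the ATF4 mRNA is translated more. ATF4, often paired with C/EBP proteins such as CEBPG, then activates genes for amino acid synthesis, amino acid transport and tRNA charging, and also DDIT3 (CHOP), TRIB3 and PPP1R15A, which limit or end the response. Because ATF4 is controlled largely at translation, its mRNA and the mRNAs of its targets need not move together.

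Levels are log2 values of the background-subtracted signal relative to the 75th percentile of the array, so that 0 is the level of that percentile. A change is the difference between 2 group means on this scale, given with its standard error, and a gene is said to have risen or fallen where limma gave an adjusted p under 0.05. The 75th percentile lay between 1235 and 2105 intensity units, 60.1% to 77.9% of spots were well above background, and at most 3 spots of an array were saturated. Replicates of a group correlated with r of 0.977 to 0.994 over the genes tested. NR1H4 was bright on every array, with group means of 7.56 in S154D_CDCA, 7.59 in S154A_CDCA, 7.77 in S154D_DMSO and 7.73 in S154A_DMSO. FABP6, a bile acid binding protein and a known FXR target, changed by 7.08 with CDCA in S154A cells (adjusted p = 0.000629) and by 0.16 in S154D cells (adjusted p = 0.877). Of 7 markers of a kidney or fibroblast-like line, 6 were well above background on all 12 arrays, as were 2 of 5 hepatocyte markers and 3 of 5 leukocyte markers at low levels, while the leukocyte marker PTPRC was above background on no array. Of the 32 genes, 31 were well above background on all 12 arrays, and NUPR1 was so on 11.

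The first comparison asked what CDCA changed in cells with FXR S154A. The 32 genes lay slightly higher as a group: 24 of the 32 had a positive change, against 40.3% of all genes tested, and the median change was 0.18, against -0.04 over all genes. The 32 genes were also brighter on average, with a mean level per array of 1.63 to 2.03, against -0.86 to -0.68 over all genes. Genes matched in brightness were not compared. The transcription factors and the 8 enzymes of amino acid and one-carbon synthesis stood highest, with medians of 0.40 and 0.31, against 0.12 for the tRNA synthetases and 0.08 for the feedback genes. No single gene of the 32 passed the test (adjusted p from 0.825 to 0.991), where 0.133% of all genes were called (0.128% higher and 0.00491% lower). Before adjustment, 4 of the 32 had a p under 0.05, all higher and none lower, where 5.93% of all genes did, 1.72% higher and 4.2% lower.

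Among the transcription factors, ATF4 itself stood at 5.21, 5.23 and 5.24 in S154A_CDCA, against 4.75, 4.97 and 4.80 in S154A_DMSO. DDIT3, the pro-apoptotic factor CHOP, stood at 2.74, 2.60 and 2.88 in S154A_CDCA, against 2.33, 2.39 and 2.20 in S154A_DMSO. CEBPB, a C/EBP factor that can dimerise with ATF4, stood at 3.10, 3.02 and 3.24 in S154A_CDCA, against 2.62, 2.70 and 2.77 in S154A_DMSO. For all 3 genes every CDCA array lay above every DMSO array. The changes were 0.38 ± 0.21 for ATF4 (95% interval -0.09 to 0.85, adjusted p = 0.886), 0.43 ± 0.18 for DDIT3 (0.02 to 0.84, adjusted p = 0.834) and 0.42 ± 0.17 for CEBPB (0.04 to 0.81, adjusted p = 0.831). In bulk RNA, a change in the number of cells that express a gene and a change in RNA per cell cannot be told apart.

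The remaining factors did not share this separation. ATF3, a stress-induced factor that ATF4 activates, stood at 3.45, 3.24 and 3.19 in S154A_CDCA, against 3.48, 3.63 and 3.35 in S154A_DMSO, a change of -0.19 ± 0.12. NUPR1, a small stress-induced chromatin protein, stood at -1.62, -1.40 and -1.68 in S154A_CDCA, against -1.87, -1.61 and -7.58 in S154A_DMSO. Its change of 2.12 ± 1.22 was 0.18 within slide 1 and 5.96 within slide 3, which held the low DMSO array, and the groups overlap. CEBPG varied more between replicates than between groups (0.40 ± 0.46), with levels from -0.15 to 1.44 over the 12 arrays, and ATF5 changed by 0.07 ± 0.15.

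Of the enzymes, the serine pathway was measured at all 3 steps. PHGDH, its first and rate-limiting enzyme, stood at 2.94, 3.07 and 3.15 in S154A_CDCA, against 2.68, 2.77 and 2.33 in S154A_DMSO. PSPH, which releases serine in the last step, stood at 1.20, 0.87 and 1.15 in S154A_CDCA, against 0.69, 0.36 and 0.72 in S154A_DMSO. Both enzymes lay higher on every CDCA array, by 0.46 ± 0.17 (0.08 to 0.83, adjusted p = 0.825) and 0.48 ± 0.20 (0.03 to 0.93, adjusted p = 0.832). PSAT1, the transaminase between them, stood at 3.72, 3.51 and 3.00 in S154A_CDCA, against 2.59, 3.23 and 3.21 in S154A_DMSO, so that the groups overlap (0.40 ± 0.25). ASNS, which makes asparagine and is a classical ATF4 target, stood at 4.80, 4.88 and 4.56 in S154A_CDCA, against 4.33, 4.48 and 4.39 in S154A_DMSO, without overlap (0.35 ± 0.18, adjusted p = 0.875). PCK2, the mitochondrial phosphoenolpyruvate carboxykinase, changed by 0.28 ± 0.17, while SHMT2, MTHFD2 and CTH changed by -0.04 to 0.12.

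Of the feedback genes, TRIB3, a pseudokinase that restrains ATF4, stood at 4.15, 3.90 and 3.93 in S154A_CDCA, against 3.70, 4.00 and 3.73 in S154A_DMSO (0.18 ± 0.21). PPP1R15A (GADD34), which guides the phosphatase that reverses eIF2 phosphorylation, changed by 0.23 ± 0.14 without overlap of the groups. The mTORC1 inhibitors DDIT4 and SESN2 changed by 0.07 and 0.08, and STC2, a secreted glycoprotein, by -0.30. The 12 synthetases, which charge tRNAs with their amino acids, ranged from -0.21 (IARS) to 0.32 (WARS), with 7 of 12 positive, and WARS, for tryptophan, was the one whose groups did not overlap.

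In all, the groups did not overlap for 8 of the 32 genes, all of them higher with CDCA (ATF4, DDIT3, CEBPB, PPP1R15A, ASNS, PHGDH, PSPH and WARS), where 3.77% of all genes were separated upwards and 7.98% downwards. Slides 1 and 3 each held 1 array of both S154A groups. The changes within them, 1 array minus 1 array, were 0.48 and 0.41 for ATF4 and 0.55 and 0.54 for DDIT3. They were 0.47 and 0.61 for PHGDH, and 0.22 and 0.41 for ASNS. These genes are among the 8 without overlap, so the positive signs within slides were fixed in advance and add no support. The plot of levels on each array shows how close the replicates of ATF4 lie in S154A_CDCA and how far they lie apart in the S154D groups.

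**Figure D1:**
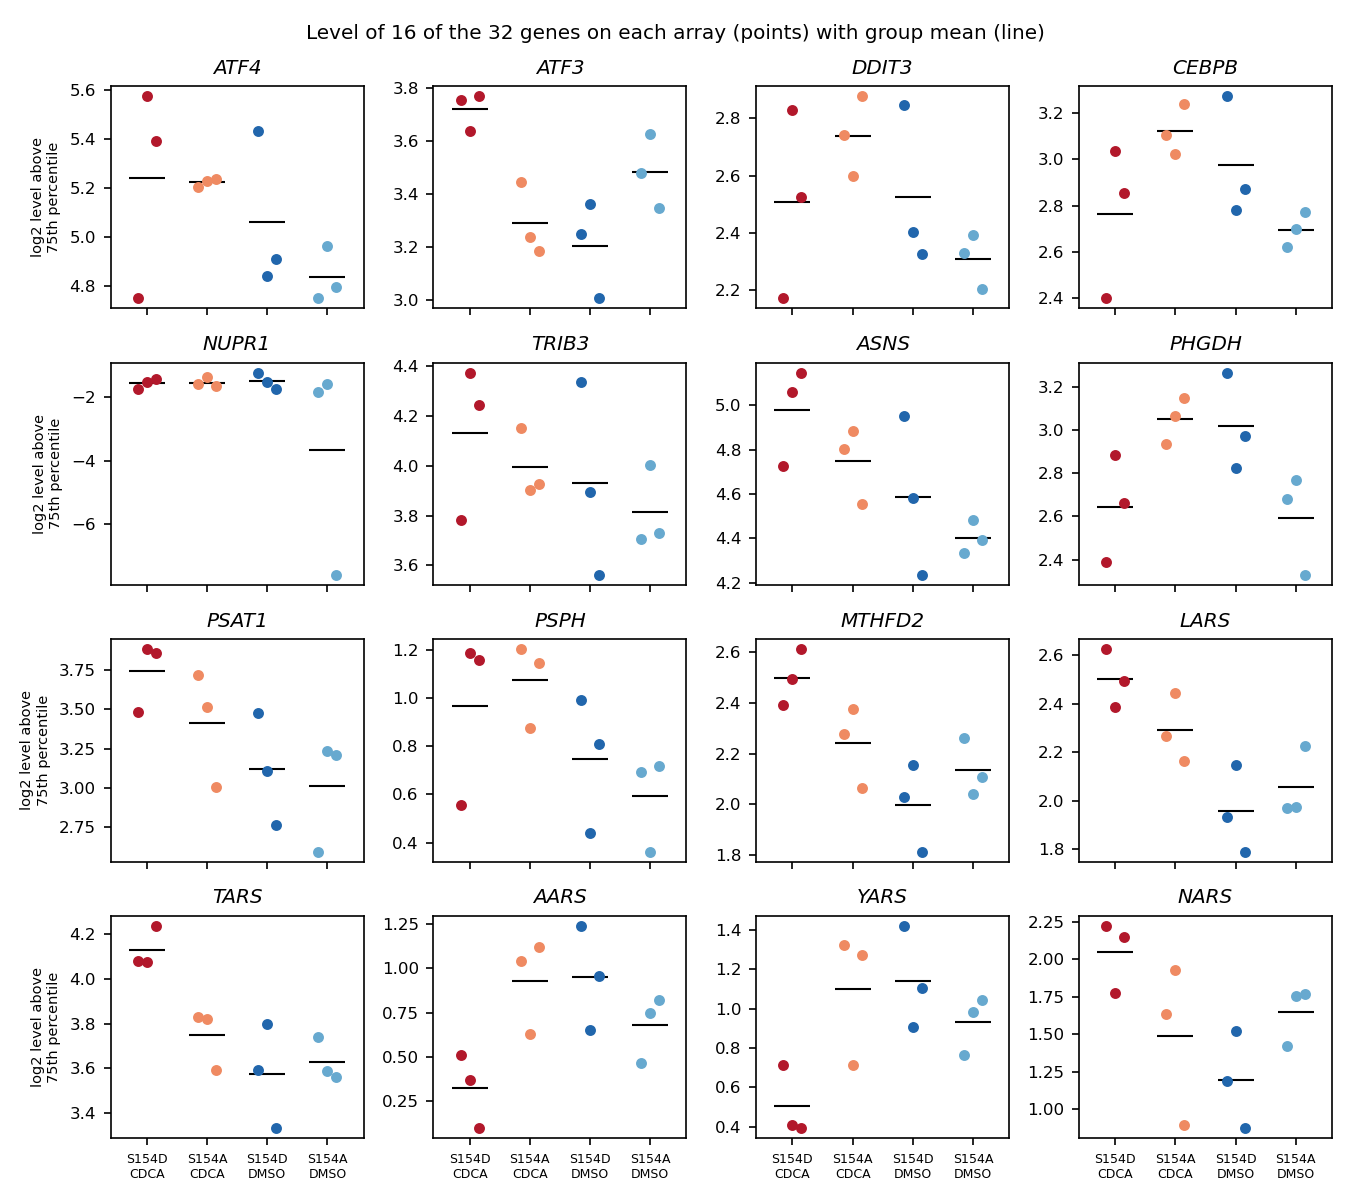
Levels of 16 of the 32 genes on each of the 12 arrays (points, replicates 1 to 3 from left to right) with group means (lines), in log2 units relative to the 75th percentile of the array, with a separate vertical scale for each gene. ATF3, MTHFD2, LARS and TARS lie higher on all 3 arrays of S154D_CDCA than on those of S154D_DMSO, and the low NUPR1 mean of S154A_DMSO comes from 1 array at -7.58.

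The second comparison asked the same of cells with FXR S154D. Of the 32 genes 4 were called, all of them higher with CDCA: the stress factor ATF3, the mitochondrial folate enzyme MTHFD2, and LARS and TARS, the synthetases for leucine and threonine. This is near the background of this comparison, in which 10.2% of all genes were called, 6.55% higher and 3.65% lower. The 32 genes did not lean one way: 17 had a positive change, against 49.3% of all genes, with a median of 0.16, against -0.01 over all genes. Before adjustment 14 had a p under 0.05, 10 higher and 4 lower, where 30% of all genes did, 18% higher and 12% lower.

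ATF3 stood at 3.75, 3.64 and 3.77 in S154D_CDCA, against 3.25, 3.36 and 3.01 in S154D_DMSO. It rose by 0.52 ± 0.12, which is 1.43-fold (95% interval of the log2 change 0.24 to 0.79, adjusted p = 0.0348). In the same cells ATF4 stood at 4.75, 5.57 and 5.39 in S154D_CDCA, against 5.43, 4.84 and 4.91 in S154D_DMSO, and DDIT3 at 2.17, 2.83 and 2.53 in S154D_CDCA, against 2.85, 2.40 and 2.32 in S154D_DMSO. Both overlap, with changes of 0.18 ± 0.21 (adjusted p = 0.610) and -0.02 ± 0.18 (adjusted p = 0.965). CEBPB changed by -0.21 ± 0.17 and ATF5 by -0.37 ± 0.15, while CEBPG and NUPR1 varied more between arrays than between groups (standard errors of 0.46 and 1.22).

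The amino acid enzymes were split. MTHFD2, which supplies mitochondrial one-carbon units, stood at 2.39, 2.49 and 2.61 in S154D_CDCA, against 2.03, 2.15 and 1.81 in S154D_DMSO, and rose by 0.50 ± 0.13 (1.41-fold, 0.22 to 0.78, adjusted p = 0.0388). PSAT1 stood at 3.48, 3.88 and 3.86 in S154D_CDCA, against 3.48, 3.11 and 2.77 in S154D_DMSO, with no overlap by a small margin (0.62 ± 0.25, adjusted p = 0.128). CTH, which makes cysteine from cystathionine, also separated (0.46 ± 0.15, adjusted p = 0.0715). PHGDH, one step before PSAT1, ran the other way, at 2.39, 2.89 and 2.66 in S154D_CDCA, against 3.27, 2.82 and 2.97 in S154D_DMSO (-0.37 ± 0.17, adjusted p = 0.168). ASNS stood at 4.73, 5.06 and 5.15 in S154D_CDCA, against 4.95, 4.58 and 4.23 in S154D_DMSO, with overlap (0.39 ± 0.18, adjusted p = 0.179), and PSPH at 0.56, 1.18 and 1.16 in S154D_CDCA, against 0.99, 0.44 and 0.81 in S154D_DMSO, also with overlap (0.22 ± 0.20).

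Among the feedback genes TRIB3 stood at 3.78, 4.37 and 4.24 in S154D_CDCA, against 4.34, 3.90 and 3.56 in S154D_DMSO (0.20 ± 0.21, adjusted p = 0.552). The others had negative changes, from -0.13 for DDIT4 and -0.14 for PPP1R15A to -0.41 for STC2 and -0.42 for SESN2, none of them called. At their brightest probes DDIT4, SESN2 and STC2 lay lower on every CDCA array. A dimmer probe of STC2 that also passed the filter lay higher on every CDCA array, with a change of 0.51.

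The tRNA synthetases had changes of both signs. LARS stood at 2.62, 2.39 and 2.49 in S154D_CDCA, against 1.93, 2.15 and 1.79 in S154D_DMSO, and rose by 0.55 ± 0.13 (1.46-fold, 0.26 to 0.84, adjusted p = 0.0346). TARS stood at 4.08, 4.07 and 4.24 in S154D_CDCA, against 3.59, 3.80 and 3.33 in S154D_DMSO, and rose by 0.56 ± 0.13 (1.47-fold, 0.26 to 0.85, adjusted p = 0.0340). AARS and YARS, for alanine and tyrosine, ran the other way. AARS stood at 0.51, 0.37 and 0.10 in S154D_CDCA, against 1.24, 0.65 and 0.96 in S154D_DMSO, and YARS at 0.71, 0.41 and 0.39 in S154D_CDCA, against 1.42, 0.91 and 1.10 in S154D_DMSO. Neither pair of groups overlaps, but the changes of -0.63 ± 0.19 and -0.64 ± 0.19 missed the threshold (adjusted p = 0.0609 and 0.0572). The largest of the 32 changes, 0.85 ± 0.26 for NARS, missed it too (adjusted p = 0.0616). Over the 12 synthetases 8 changes were positive, with a median of 0.32.

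Counted over the 32 genes, 10 were separated upwards (ATF3, MTHFD2, PSAT1, CTH, GARS, IARS, LARS, MARS, NARS and TARS) and 5 downwards (DDIT4, SESN2, STC2, AARS and YARS), where 20.2% of all genes were separated upwards and 13.5% downwards. Within slide 3, the one slide that held both S154D groups, the changes were 0.63 for ATF3, 0.68 for MTHFD2, 0.60 for LARS and 0.74 for TARS, and 0.66 for ATF4, 0.50 for DDIT3 and 0.83 for ASNS. Each is 1 array minus 1 array, S154D_CDCA 2 minus S154D_DMSO 3, and lay above the fitted change. S154D_DMSO 3 was the lowest array of its group for 18 of the 32 genes. For the 4 called genes, whose groups do not overlap, the sign was fixed in advance. The 4 calls were lost with slide as a block (adjusted p from 0.138 to 0.191) and with only the S154D arrays in the fit (0.104 to 0.109), at changes of 0.44 to 0.65. With 1 array left out the number of called genes among the 32 ranged from 0 to 9: it was 0 without S154D_CDCA 2 or 3 or S154D_DMSO 1 or 3, 2 without S154D_CDCA 1, S154A_CDCA 1 or S154A_DMSO 1 or 3, 6 without S154A_CDCA 3 and 9 without S154A_CDCA 2.

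**Figure D2:**
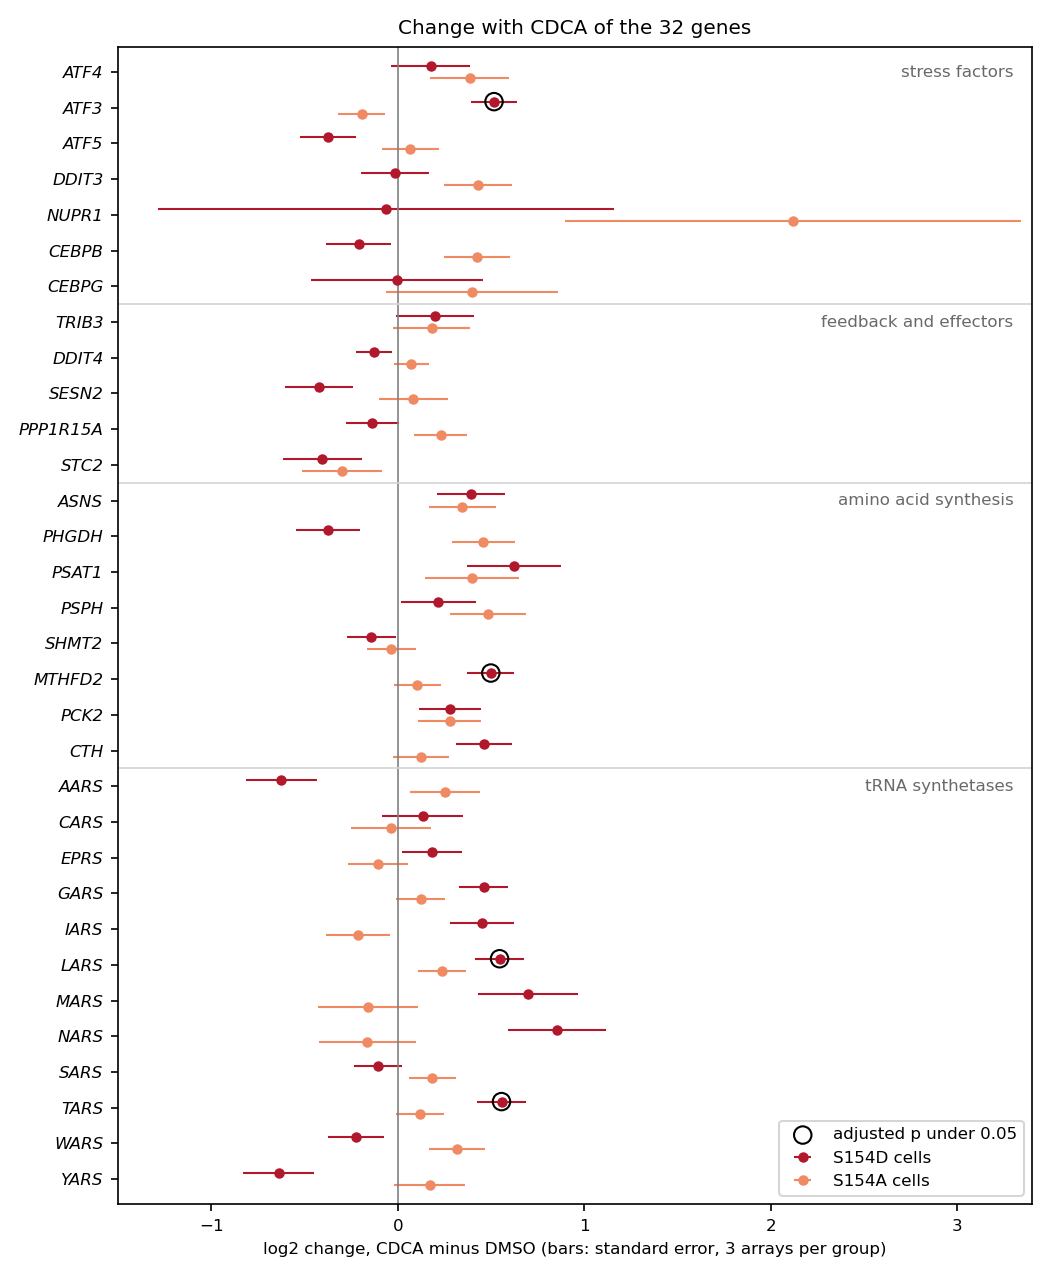
Log2 change with CDCA (CDCA minus DMSO) of the 32 genes in S154D cells (dark red) and S154A cells (orange), with standard errors of the fit, 3 arrays per group. The 4 circled genes, ATF3, MTHFD2, LARS and TARS, had an adjusted p under 0.05 in S154D cells, and AARS and YARS have the most negative changes, at -0.63 and -0.64.

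Replicate 1 often lay at the edge of both S154D groups. Over the 32 genes it was the lowest array of S154D_CDCA for 16 and the highest for 8, and the highest array of S154D_DMSO for 20 and the lowest for 1. Among the transcription factors it was the lowest of S154D_CDCA for 6 of 7, and among the synthetases it was the highest for 7 of 12. It was both the lowest of S154D_CDCA and the highest of S154D_DMSO for 11 genes (ATF4, ATF5, DDIT3, NUPR1, CEBPB, TRIB3, ASNS, PHGDH, PSAT1, PSPH and SARS). Other arrays also lay at an edge: S154D_DMSO 3 was the lowest of its group for 18 of the 32 genes, and S154A_DMSO 1 for 18. These orders were not counted over all genes. The median deviation of the 7 transcription factors from their means over all arrays was -0.35 on S154D_CDCA 1, against 0.31 and 0.30 on S154D_CDCA 2 and 3, and 0.33 on S154D_DMSO 1, against -0.11 and -0.02 on S154D_DMSO 2 and 3. Over all genes the deviations of these 6 arrays lay between -0.02 and 0.11. Without S154D_CDCA 1 the median change of the 32 genes was 0.22 with 20 positive and 2 called, and without S154D_DMSO 1 it was 0.24 with 21 positive and 0 called. The change of DDIT3 turned positive in both cases, at 0.15.

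**Figure D3:**
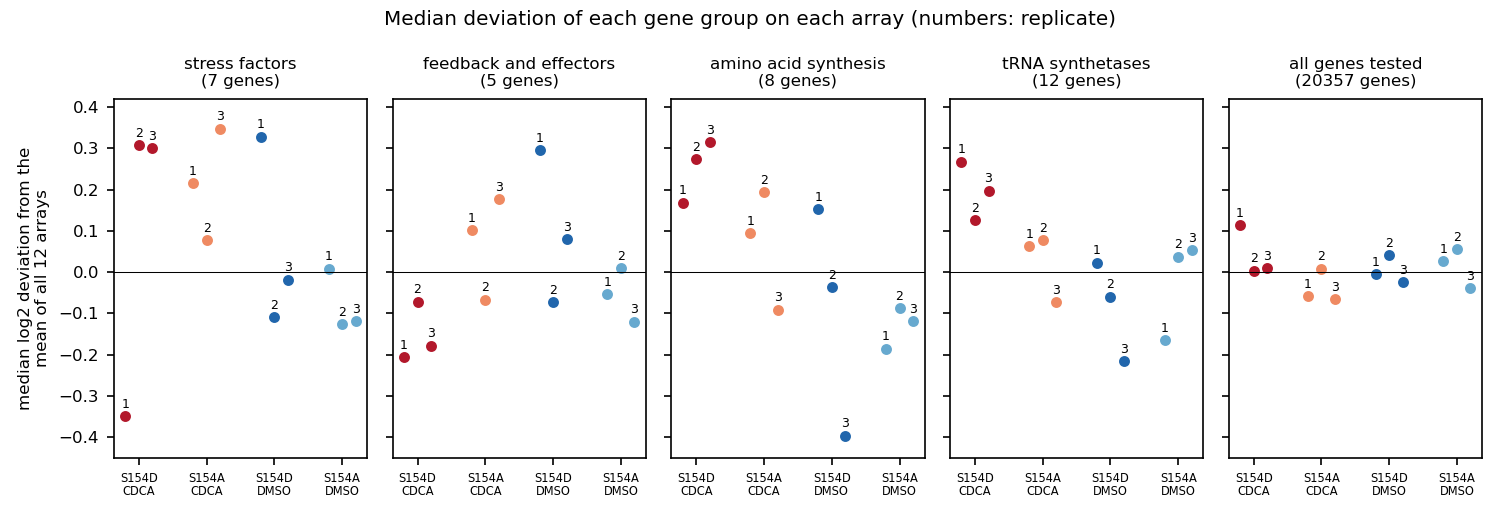
Median log2 deviation of each gene group, and of all 20357 genes, from the mean over all 12 arrays, by array (points, with the replicate number). In the transcription factors S154D_CDCA 1 lies at -0.35 while its 2 replicates lie at 0.31 and 0.30, and all 3 S154D_CDCA arrays lie above 0 in the amino acid enzymes and synthetases.

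The base composition of the probes moved with the S154D changes. The genes that rose had probes of low G + C content (ATF3 38.3%, LARS and MTHFD2 35%, TARS 36.7%), and AARS, YARS and PHGDH had probes of 55%. Of the 12 genes with probes of at most 40% G + C, 12 had a positive change with CDCA in S154D cells, and of the 10 genes with probes of at least 50%, 1 did (ATF4). Over all genes the same classes were positive in 76.5% and 15.2%. In S154A cells the classes had 7 of 12 and 9 of 10 positive, against 44.9% and 34.9% of all genes. The rank correlation of change with probe G + C was -0.85 over the 32 genes in S154D cells and 0.34 in S154A cells, and -0.56 and -0.11 over all genes. Genes of 1 array set share their libraries and are not independent, and the 32 genes had the same median probe G + C as all genes, 45%.

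The probes of 4 synthetases, picked to show the contrast, are given with G and C in capitals and the sequences as the scanner files give them. Some of the other synthetases moved less in S154D cells: SARS, with a probe of 55%, changed by -0.11, and CARS, with a probe of 40%, by 0.13. Others did not: NARS (35%), MARS (30%) and TARS (36.7%) changed by 0.85, 0.70 and 0.56. In the human build hg17 the AARS probe lies at chr16:68845377-68845436 on the minus strand and the YARS probe at chr1:32914892-32914951 on the minus strand. The coordinates of the GARS probe, chr7:30439131-30441430 on the plus strand, and of the LARS probe, chr5:145474059-145480177 on the minus strand, span 2300 and 6119 bases for probes of 60, so these probes cross introns. AARS and YARS have 33 G or C of 60 bases and lay lower with CDCA in S154D cells, and GARS and LARS have 21 and lay higher, GARS by 0.46 ± 0.13 (adjusted p = 0.0512).
AARS: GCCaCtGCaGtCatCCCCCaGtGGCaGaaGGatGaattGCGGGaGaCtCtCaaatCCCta
YARS: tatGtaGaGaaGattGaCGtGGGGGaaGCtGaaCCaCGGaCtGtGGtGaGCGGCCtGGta
GARS: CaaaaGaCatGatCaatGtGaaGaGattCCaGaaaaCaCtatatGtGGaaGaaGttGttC
LARS: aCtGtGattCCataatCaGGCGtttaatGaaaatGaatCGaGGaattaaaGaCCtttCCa

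After each array was corrected for a smooth trend of its deviations on probe G + C, none of the 32 genes was called in S154D cells by limma (adjusted p of 0.218 or more), and none of all genes was, with 3785 at an unadjusted p under 0.05. The corrected changes were 0.34 for ATF3, 0.20 for MTHFD2, 0.24 for LARS and 0.31 for TARS. Of the 32 genes 24 were then positive, against 53.2% of all genes, with a median of 0.16. ASNS, ATF3 and TARS had an unadjusted p under 0.05, where 18.6% of all genes did. In S154A cells 26 of the 32 were positive after the correction, against 52.3% of all genes, with a median of 0.24 and none called. After the correction the rank correlation of change with probe G + C was -0.46 over the 32 genes in S154D cells and 0.44 in S154A cells. Over all genes it was -0.03 and 0.03, so a trend remained among the 32 genes. The part of base composition in the changes of single genes was not tested.

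**Figure D4:**
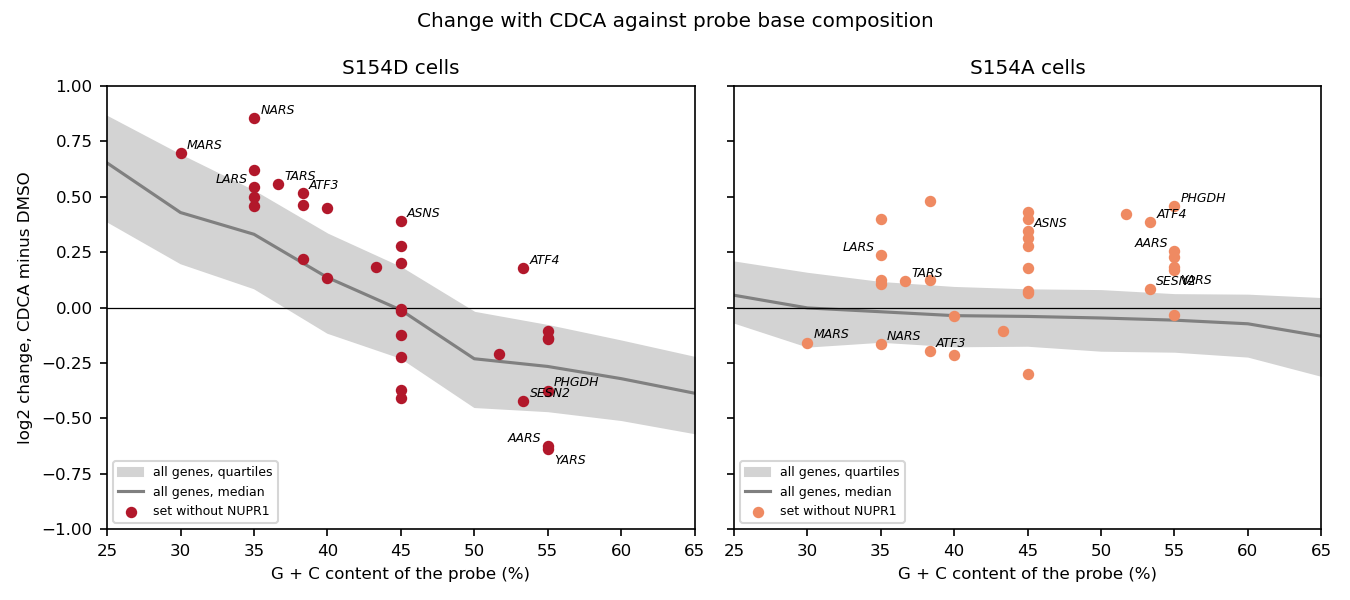
Log2 change with CDCA against the G + C content of the probe in S154D cells (left) and S154A cells (right), for the 32 genes without NUPR1 (points), with the median (line) and quartiles (band) of all genes tested. In S154D cells the points run from 0.85 for NARS at 35% to -0.64 for YARS at 55%, along the fall of all genes, and in S154A cells they show no such fall.

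For 10 of the 32 genes a dimmer probe also passed the filter, which gave 11 pairs of probes for the same gene. In S154D cells the probes of a pair had opposite signs in 6 of 11 pairs, against 3 of 11 in S154A cells. Where the dimmer probe was richer in G + C, its change with CDCA in S154D cells was the lower of the pair in 6 of 6 pairs, and in S154A cells in 2 of 6. The dimmer probe was also the lower one in 2 of 3 pairs in which it was poorer in G + C and in both pairs of equal G + C, so that in S154D cells it was lower in 10 of 11 pairs, against 5 of 11 in S154A cells. In the 6 pairs with a richer dimmer probe, brightness and G + C cannot be told apart. MARS, the methionine synthetase, changed by 0.70 at its brightest probe (30% G + C) and by -0.72 at the other (41.7%). TRIB3 changed by 0.20 at its brightest probe (45%) and by -0.73 at the other (60%), which passed the test (adjusted p = 0.0302). PCK2 changed by 0.28 and -0.71, and CEBPB by -0.21 and -0.91. STC2 went the other way, with -0.41 at its brightest probe (45%) and 0.51 at the other (35%). Of the called genes, ATF3 and LARS had a further probe, with changes of 0.01 ± 0.18 (adjusted p = 0.977) and 0.06 ± 0.56 (adjusted p = 0.955). These p-values were adjusted over all kept probes.

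The dimmer probes of TRIB3 (chr20:324856-324915), MARS (chr12:56191888-56192086) and ATF4 (chr22:38242375-38242434), all on the plus strand of hg17, are shown because their changes in S154D cells had the sign opposite to those of the brighter probes. The ATF4 pair had the same G + C content, 53.3%, and changed by 0.18 at the brighter probe and -0.24 at the dimmer one in S154D cells, and by 0.38 and 0.31 in S154A cells.
TRIB3: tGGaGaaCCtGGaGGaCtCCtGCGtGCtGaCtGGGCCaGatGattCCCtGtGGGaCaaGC
MARS: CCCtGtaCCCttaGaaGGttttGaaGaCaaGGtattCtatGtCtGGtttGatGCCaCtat
ATF4: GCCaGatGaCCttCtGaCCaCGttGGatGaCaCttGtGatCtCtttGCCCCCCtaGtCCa

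**Figure D5:**
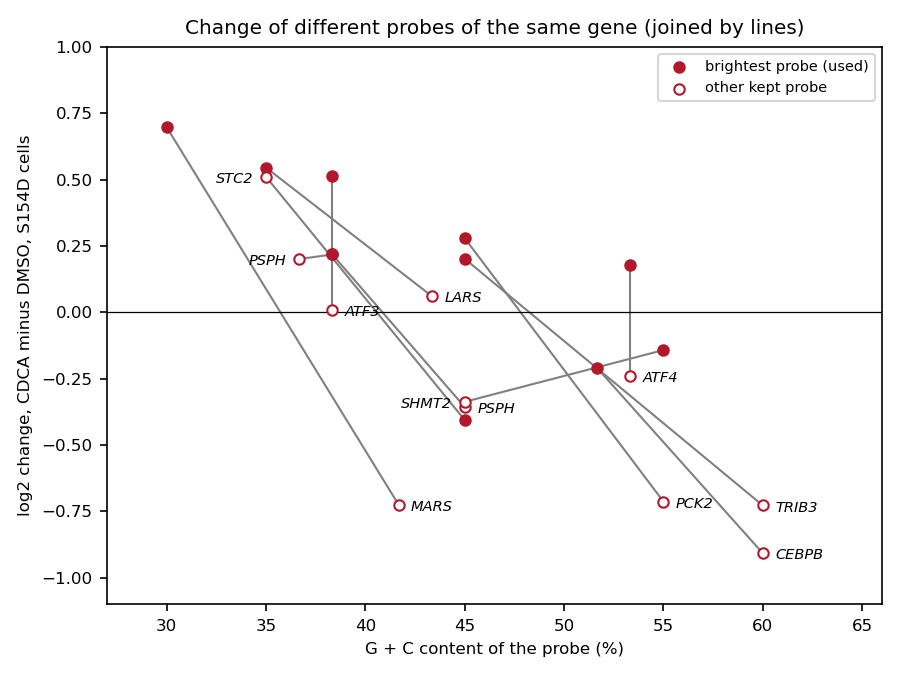
Log2 change with CDCA in S154D cells against the G + C content of the probe, for the 10 genes with more than 1 kept probe, the brightest probe filled and each other kept probe open, joined by lines. The MARS probes lie at 0.70 and -0.72, and the open point lies below its filled partner in 10 of 11 pairs: in 6 of 6 where it is to the right, in 2 of 3 where it is to the left, and in both pairs of equal G + C.

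The comparison of the mutants under CDCA asked whether the charged residue changed these genes in the presence of bile acid. None of the 32 genes was called by limma, where 0.403% of all genes were (0.0737% higher and 0.329% lower), and 16 of the 32 were positive, against 56.3% of all genes. Unadjusted p-values under 0.05 were found for 4 genes higher in S154D (ATF3, IARS, MARS and TARS) and 4 lower (PHGDH, AARS, WARS and YARS), where 15.9% of all genes were higher and 7.76% lower (23.6% in all). ATF3 lay higher on all 3 S154D arrays, at 3.75, 3.64 and 3.77 in S154D_CDCA, against 3.45, 3.24 and 3.19 in S154A_CDCA (0.43 ± 0.12, adjusted p = 0.104). AARS stood at 0.51, 0.37 and 0.10 in S154D_CDCA, against 1.04, 0.63 and 1.12 in S154A_CDCA (-0.61 ± 0.19, adjusted p = 0.116), and YARS at 0.71, 0.41 and 0.39 in S154D_CDCA, against 1.32, 0.71 and 1.27 in S154A_CDCA (-0.60 ± 0.19, adjusted p = 0.117). Neither synthetase overlaps, although the YARS groups meet at 0.71. The difference for ATF4 was 0.02 ± 0.21 (95% interval -0.45 to 0.49), and -0.47 at its other kept probe. MARS differed by 0.71 at its brightest probe and by -0.69 at the other. In this comparison 7 of the 11 pairs of probes had opposite signs. In all, 4 genes were separated upwards (MTHFD2, ATF3, IARS and TARS) and 5 downwards (PHGDH, AARS, SARS, WARS and YARS), against 21% and 7.52% of all genes. Probe G + C and the difference between the mutants had a rank correlation of -0.76 over the 32 genes and -0.39 over all genes. After the correction for probe G + C, limma gave 1 of the 32 an unadjusted p under 0.05 (WARS, lower), where 16.3% of all genes passed.

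In DMSO, without added bile acid, none of the 32 genes and none of all 20357 genes was called by limma (0% called, 880 genes at an unadjusted p under 0.05). Of the 32, 20 were positive, against 50% of all genes, and PHGDH and CEBPB lay higher on every S154D array, where 4.8% of all genes did, while none of the 32 lay lower on every S154D array, against 6.26% of all genes. Before adjustment PHGDH was higher and ATF3 lower at a p under 0.05, where 4.32% of all genes passed, 1.17% higher and 3.15% lower. PHGDH stood at 3.27, 2.82 and 2.97 in S154D_DMSO, against 2.68, 2.77 and 2.33 in S154A_DMSO (0.43 ± 0.17, adjusted p = 0.997). ATF3 stood at 3.25, 3.36 and 3.01 in S154D_DMSO, against 3.48, 3.63 and 3.35 in S154A_DMSO, with overlap (-0.28 ± 0.12, adjusted p = 0.997). NUPR1 differed by 2.17 ± 1.22, and by 0.22 without the array at -7.58. The 8 synthetases that lay lower in S154D_DMSO and the 6 transcription factors that lay higher were not called. Probe G + C and the difference had a rank correlation of 0.78 over the 32 genes and 0.31 over all genes.

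The difference between the CDCA responses, S154D minus S154A, uses the same 12 arrays as the comparisons above. By limma none of the 32 genes was called, against 0.138% of all genes (0.0442% higher and 0.0933% lower), and 15 of the 32 were positive, against 53.4% of all genes. Of the 32, 10 had an unadjusted p under 0.05, 5 in each direction, where 22.3% of all genes did, 15.1% higher and 7.23% lower. The rank correlation with probe G + C was -0.83 over the 32 genes and -0.40 over all genes. After the correction for probe G + C, 1 was higher (ATF3) and 2 lower (PHGDH and WARS) at that level, where 14.7% of all genes passed. Without the correction ATF3 had the smallest p: its response was 0.52 in S154D cells and -0.19 in S154A cells, a difference of 0.71 ± 0.18 (0.32 to 1.10, adjusted p = 0.0868). PHGDH responded by -0.37 in S154D cells and 0.46 in S154A cells (-0.83 ± 0.24, adjusted p = 0.107), and AARS by -0.63 in S154D cells and 0.25 in S154A cells (-0.88 ± 0.27, adjusted p = 0.116). Of the genes that rose in S154D cells, MTHFD2 responded by 0.50 in S154D cells and 0.10 in S154A cells (0.39 ± 0.18), LARS by 0.55 in S154D cells and 0.24 in S154A cells (0.31 ± 0.18), and TARS by 0.56 in S154D cells and 0.12 in S154A cells (0.44 ± 0.19). None of these differences passed the test, so the rises in S154D cells were not shown to differ from the changes in S154A cells. The difference was 0.04 for ASNS (95% interval -0.53 to 0.61) and 0.02 for TRIB3 (-0.64 to 0.68). At their other kept probes it was -1.06 for TRIB3, -0.52 for LARS and 0.31 for ATF3. Of the 11 pairs of probes, 5 had opposite signs here.

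Further genes of the pathway were taken from lists chosen by function. Amino acid transporters were measured for 11 of 14 genes. With CDCA in S154D cells 1 of them fell and none rose, where 3.65% of all genes fell and 6.55% rose. In S154A cells none was called by limma, where 0.133% of all genes were, while 3 of 11 had an unadjusted p under 0.05, all higher, where 1.72% of all genes were higher at that level. SLC1A5, the glutamine and neutral amino acid carrier ASCT2, stood at -1.83, -1.90 and -2.34 in S154D_CDCA, -1.02, -1.35 and -0.96 in S154A_CDCA, -1.31, -1.54 and -1.41 in S154D_DMSO, and -1.60, -1.61 and -1.62 in S154A_DMSO. It is lowest in S154D_CDCA and highest in S154A_CDCA, with no overlap between these or with the DMSO arrays of the same mutant. It fell by 0.60 with CDCA in S154D cells (adjusted p = 0.0382) and differed by -0.91 ± 0.15 between S154D_CDCA and S154A_CDCA (adjusted p = 0.0380), while its change of 0.50 ± 0.15 in S154A cells was not called (adjusted p = 0.668). The difference under CDCA was -0.80 after the correction for probe G + C (adjusted p = 0.111), -0.93 with slide as a block (adjusted p = 0.300), and -0.76 to -1.03 with 1 array left out (adjusted p from 0.0349 to 0.205). Its change in S154D cells was -0.35 after the correction for probe G + C (adjusted p = 0.291) and -0.62 with slide as a block (adjusted p = 0.146). With 1 array left out this change was -0.44 to -0.70 (adjusted p from 0.0316 to 0.128). Both SLC1A5 calls were also lost with the replicate block, no filter, only the arrays compared, or the unscaled series table (adjusted p from 0.0583 to 0.877). They held with quantile normalisation, normexp, the filter on all arrays and the mean of the kept probes. SLC7A5, the large neutral amino acid transporter, changed by 0.01 in S154D cells and 0.49 in S154A cells, neither called. In S154D cells its other kept probe, of 55% G + C, changed by -0.43 (adjusted p = 0.0693), and the corrected change of the probe used, of 35%, was -0.29.

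Of 14 genes for eIF2, its exchange factor and its kinases, 2 rose and 2 fell with CDCA in S154D cells, where 6.55% of all genes rose and 3.65% fell, and none was called in S154A cells, where 0.133% of all genes were. EIF2AK3 (PERK), the kinase of endoplasmic reticulum stress, stood at -0.99, -0.82 and -0.72 in S154D_CDCA, against -1.68, -1.49 and -1.73 in S154D_DMSO, and rose by 0.79 ± 0.17 (adjusted p = 0.0302). EIF2AK1 (HRI), the kinase of heme shortage and mitochondrial stress, stood at 0.36, -0.14 and 0.07 in S154D_CDCA, against 0.64, 0.52 and 0.73 in S154D_DMSO, and fell by 0.53 (adjusted p = 0.0415). The other called genes were EIF2B4, a subunit of the exchange factor, which fell by 0.36 (adjusted p = 0.0455), and EIF2S2, the beta subunit of eIF2, which rose and is named here after its value was seen. The probes of EIF2AK3 and EIF2AK1 have 35% and 41.7% G + C, and after the correction for it the changes were 0.49 for EIF2AK3 (adjusted p = 0.177) and -0.58 for EIF2AK1 (adjusted p = 0.142), in a fit that called no gene in S154D cells. Of 13 endoplasmic reticulum chaperones 1 rose in S154D cells, DNAJB9 by 0.67 ± 0.16 (adjusted p = 0.0335, probe of 35%), with a change of 0.37 after the correction (adjusted p = 0.207). HSPA5 (BiP), another of these chaperones, changed by -0.23 in S154D cells and 0.17 in S154A cells, not called. After the correction its changes were -0.41 in S154D cells (adjusted p = 0.201) and 0.20 in S154A cells (adjusted p = 0.903).

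Of 15 further ATF4 targets 1 was called in S154D cells, where 6.55% of all genes rose and 3.65% fell. This was KLHL24, which rose by 0.67 ± 0.18 (adjusted p = 0.0445, probe of 35%), with a change of 0.37 after the correction (adjusted p = 0.268). Its other kept probe, of 40%, changed by 0.029 (adjusted p = 0.967). Of these targets 11 of 15 had a positive change in S154D cells, as did 11 of 15 in S154A cells, with medians of 0.19 and 0.16. Over all genes 49.3% had a positive change in S154D cells and 40.3% in S154A cells. The 8 cytosolic synthetases outside the set had 1 of 8 positive in S154D cells (median -0.32) and 4 of 8 in S154A cells, with none called, and the lowest change in S154D cells was that of QARS, for glutamine (adjusted p = 0.0604). Of 16 mitochondrial synthetases and 12 further genes of one-carbon metabolism none was called in either mutant. Of all genes 10.2% were called in S154D cells and 0.133% in S154A cells. Of the mitochondrial synthetases 10 of 16 had a positive change in S154D cells and 4 of 16 in S154A cells, and of the one-carbon genes 10 of 12 in S154D cells and 7 of 12 in S154A cells.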

How the data were processed

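The deposited scanner files hold, per the file headers, intensities that Agilent Feature Extraction 9.5.3.1 had background-subtracted (the submitters' processing notes name version 12), with detection, saturation and outlier flags (0 or 1). All 45015 values of the deposited series matrix, also linear intensities, equalled these signals within a relative tolerance of 1e-04, so the authors had applied no scaling between arrays. Probe coordinates are those of the human build hg17, and RNA was from the monkey: 20 of the 32 gene names are green monkey RefSeq symbols, and probe matches to monkey transcripts were not examined. A name without such a match does not show that the gene is absent in the monkey.

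Each array's 75th percentile over non-control spots was subtracted from the log2 signals. Outlier spots (123 to 326 per array) were removed, spots of a probe averaged, dim probes dropped unless every array of at least 1 group had them well above background, and the brightest kept probe taken per name. One mean per group was fitted to 12 arrays (limma 3.58.1, R 4.3.3), two-sided, with Benjamini-Hochberg adjustment over 20357 genes, called under 0.05. The number of arrays, 3 per group, limits precision. The script was tested on simulated data. Values on every array are given for ATF4, DDIT3, TRIB3, ASNS, PHGDH and PSAT1, for each called gene and for the 3 smallest p in each comparison, and up to 3 genes are named per further list, with EIF2S2 added because it was called. The members and lists were chosen with earlier results of these data known. Slides were read from the file names: slide 3 held all 4 groups, slide 1 both S154A groups and S154D_DMSO, slide 2 S154D_CDCA and S154A_DMSO, and slide 4 S154A_CDCA and S154D_DMSO. Alternatives were other normalisations, filters, probe rules, fits, blocks, a G + C correction and leaving out each array.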

Additional observations from a re-analysis of the deposited data

How the results depend on the processing

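The median change of the 32 genes with CDCA in S154A cells stayed positive, at 0.08 to 0.24 over all alternatives, with none of the 32 called (0 to 7 at an unadjusted p under 0.05). CDCA with S154D was the one comparison in which an alternative called any of the 32. There the 4 called genes became 8 with the filter for signal on all arrays, 6 with quantile normalisation (AARS and YARS added), 4 with normexp (GARS in, TARS out), 3 with the mean of the kept probes (ATF3 and LARS out, CEBPB in), and 0 with the unscaled series table, no filter, only the arrays compared, slide as a block, the replicate block, the G + C correction, or both of these together. The median in S154D cells was 0.34 with the series table and -0.023 with the mean of the kept probes, and 0.0099 to 0.24 with 1 array left out, where 0 to 9 genes were called. In S154D cells DDIT3 (-0.02) turned positive with the series table (0.17), slide as a block (0.10), the G + C correction with or without the replicate block (0.045), without S154D_DMSO 1 or S154D_CDCA 1 (0.15 each, in a range of -0.18 to 0.15 with 1 array left out) and within slide 3 (0.50). ATF4 turned negative with the mean of its probes (-0.031) and at its other probe (-0.24), and TRIB3 likewise (-0.26 and -0.73). The cause was not tested.

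Over all genes, CDCA with S154A called 13 with the series table, 12 with only the arrays compared, 5 with slide as a block and 13 to 28 with 1 array left out, against 27. CDCA with S154D called 1 with the series table and 0 with no filter, only the arrays compared, slide as a block, the replicate block, the G + C correction or both (3696 to 6109 at an unadjusted p under 0.05), and 0 to 2208 with 1 array left out, against 2077. S154D against S154A in CDCA called 194 with quantile normalisation, 145 with the filter on all arrays, 53 with the replicate block, 51 with the G + C correction, 47 with both, 31 with no filter, 14 with only the arrays compared, 9 with the series table, 3 with slide as a block, and 19 to 265 with 1 array left out, against 82. In DMSO the series table called 1 gene, with a median of -0.13 for the 32 genes. The difference of the responses called 131 with the filter on all arrays, 118 with quantile normalisation, 44 with normexp, 14 with the G + C correction, 6 with the replicate block with or without it, 2 with the series table, 0 with no filter or slide as a block (4176 and 3058 at an unadjusted p under 0.05), and 0 to 66 with 1 array left out, against 28. Its median over the 32 genes (-0.11) was 0.18 with the series table, -0.28 with the mean of the kept probes and -0.16 to 0.021 with 1 array left out. The unscaled series table moved the median of all genes to -0.14, 0.18, 0.10, -0.24 and 0.32 in the 5 comparisons.

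Same-numbered arrays of different groups had correlations of their deviations from -0.35 to 0.51, over 0.1 in 9 of 18 pairs. Without the same values for differently numbered arrays, these correlations cannot show whether the numbers pair the samples. With 3 arrays per group, slide 3 alone holding both S154D groups, and human probes on monkey RNA, the single changes are limited in precision.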
